A study of Homo sapiens with 4 samples.

Results

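To understand how the genes for the HOX cofactors were packaged before and after resistance to an androgen receptor inhibitor, accessible chromatin was described at 8 genes, PBX2, PBX3, PBX4, MEIS1, MEIS2, MEIS3, PKNOX1 and PKNOX2. Members were taken by name from GENCODE, among 19689 protein-coding genes, and an accessible interval belonged to a gene when it touched the gene body or the 100 kb on either side. By this rule 174 of the 149676 C4-2B intervals and 166 of the 118728 C4-2BER intervals were kept. Accessibility came from ATAC-seq, which uses the enzyme Tn5 to insert sequencing adapters where the chromatin is open. C4-2B is a human prostate adenocarcinoma cell line, grown in RPMI with fetal bovine serum. C4-2BER is the neuroendocrine-like line that the study obtained from C4-2B by keeping it in enzalutamide, so each group is a single line and the treated group a single derivation. There were 2 libraries per line, 4 in all, but the replicates of a line were merged before peaks were called. Each value below therefore comes from 1 merged list per line, has no replicate spread and was not tested between the lines. Promoters of the luminal markers FOLH1 and TMPRSS2 were open in both lists, 2 of 2, and so were those of the neuroendocrine markers SYP, INSM1 and ENO2, 3 of 3. In reads, corrected for depth, the ratio of C4-2BER to C4-2B was 0.70 (95% counting interval 0.52 to 0.94) at TMPRSS2, with 128 and 75 reads, and 1.56 (1.14 to 2.15) at ENO2, with 72 and 94 reads. At FOLH1, SYP and INSM1 the interval included 1. Positions are in hg38.

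PBX, MEIS and PKNOX proteins are TALE homeodomain factors, named for an extension of amino acids within the homeodomain. PBX proteins bind DNA together with HOX proteins and sharpen their choice of sites. MEIS and PKNOX proteins (the latter also called PREP) dimerise with PBX, and the interaction governs nuclear entry and stability of PBX. The comparison asks how open the genes for these partners were in the adenocarcinoma line and in the resistant line derived from it.

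The 6 sequences below are examples of sites that differed between the lines, at MEIS2, PBX3 and PKNOX2. The genes were chosen, and runs that touch an exon were left out, so changes at other members are not printed. MEIS2 and PBX3 had intervals called in C4-2BER only, whereas sites at PBX3 and PKNOX2 were weak or not called in that line. Each run holds the 100 bases on either side of a summit, on the plus strand of hg38, and touches no annotated exon. Capitals mark matches on either strand to TGATNNAT (a PBX-HOX composite), to the MEIS and PKNOX core TGACAG, to TGTTTAC for forkhead factors, to AGATAA for factors of the GATA family, or to the E-box CAGCTG. The joined PBX-MEIS decamer and the CTCF consensus were searched too and had no match in these 6.
MEIS2, C4-2BER only, upstream, chr15:37110277-37110477: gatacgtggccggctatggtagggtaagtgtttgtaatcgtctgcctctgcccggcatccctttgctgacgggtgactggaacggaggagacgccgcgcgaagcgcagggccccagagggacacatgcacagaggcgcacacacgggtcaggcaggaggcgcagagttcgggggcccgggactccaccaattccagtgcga
MEIS2, C4-2BER only, intron, chr15:36925697-36925897: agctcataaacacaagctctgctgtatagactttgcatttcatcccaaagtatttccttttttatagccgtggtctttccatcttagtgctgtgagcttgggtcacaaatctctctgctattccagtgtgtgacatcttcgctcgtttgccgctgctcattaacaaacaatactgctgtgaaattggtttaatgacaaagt
PBX3, C4-2BER only, intron, chr9:125763400-125763600: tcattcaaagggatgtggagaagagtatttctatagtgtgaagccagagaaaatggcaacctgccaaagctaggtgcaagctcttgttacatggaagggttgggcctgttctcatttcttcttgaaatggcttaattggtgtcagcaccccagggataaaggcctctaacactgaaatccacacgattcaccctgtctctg
PBX3, shared and weak in C4-2BER, upstream, chr9:125675373-125675573: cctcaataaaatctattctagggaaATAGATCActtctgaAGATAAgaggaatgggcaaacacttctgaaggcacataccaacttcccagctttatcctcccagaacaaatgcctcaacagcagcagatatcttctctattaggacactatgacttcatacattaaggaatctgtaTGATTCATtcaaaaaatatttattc
PKNOX2, shared and weak in C4-2BER, intron, chr11:125267167-125267367: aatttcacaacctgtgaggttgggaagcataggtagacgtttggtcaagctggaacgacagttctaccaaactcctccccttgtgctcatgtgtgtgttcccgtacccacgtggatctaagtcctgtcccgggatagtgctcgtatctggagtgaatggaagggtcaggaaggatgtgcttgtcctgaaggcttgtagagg
PKNOX2, C4-2B only, upstream, chr11:125069077-125069277: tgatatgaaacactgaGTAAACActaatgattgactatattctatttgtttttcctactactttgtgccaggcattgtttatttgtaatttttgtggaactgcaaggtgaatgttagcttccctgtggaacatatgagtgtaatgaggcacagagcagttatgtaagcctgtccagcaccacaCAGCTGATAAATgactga
The PBX3 site that was weak in C4-2BER holds PBX-HOX matches at bases 26 and 177 of the printed run. In the last PKNOX2 run the E-box match at base 184 and the PBX-HOX match at base 188 overlap. The other 4 runs have no capitals, which says only that the searched letters are not in these windows.

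Promoters were examined first. An interval was assigned to a promoter when it overlapped the 2 kb on either side of any start site (TSS) of a protein-coding transcript of the gene. All 8 genes had a promoter interval in both lists, a state shared by 77.7% of protein-coding genes. The strength of an interval is given by the reads over its summit, recovered from the deposited values, and by its rank percentile by −log10 p within its own list, where 100 is the strongest. Reads carry exact 95% Poisson intervals, which cover counting error only. The genome-wide background of the lists, 2.24 reads per 200 bp in C4-2B and 1.87 in C4-2BER, gives C4-2B 1.20 times the depth of C4-2BER. Ratios of reads below are corrected for this depth.

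The PBX genes encode the direct HOX partners, and the promoters of PBX3 and PBX4 ranked above that of PBX2 in both lists. The PBX3 promoter stood at percentile 92.1 with 144 reads (121 to 170) in C4-2B, and at percentile 95.3 with 149 reads (126 to 175) in C4-2BER. At PBX4, a testis-enriched member of the family, the promoter held 142 reads (120 to 167) and 131 (110 to 155), at percentiles 96.4 and 97.7. PBX2, a broadly expressed member, had a weaker promoter, at percentile 82.7 with 78 reads (61.7 to 97.3) in C4-2B and at percentile 77.9 with 61 reads (46.7 to 78.4) in C4-2BER. Promoters are strong as a class, so among the promoter intervals of all genes the percentiles were lower. They were 52.0 and 64.5 at PBX3, 72.1 and 81.7 at PBX4, and 29.9 and 19.8 at PBX2, in C4-2B and C4-2BER. For all 3 PBX promoters the counting interval of the depth-corrected ratio of C4-2BER to C4-2B included 1, with ratios of 1.24 at PBX3, 1.10 at PBX4 and 0.94 at PBX2.

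The MEIS genes encode partners of PBX, and the promoters of MEIS2 and MEIS3 ranked lowest of the 8 in both lists. MEIS1, best known as a cofactor of HOXA9 in leukaemia, held 77 reads (60.8 to 96.2) at percentile 84.6 in C4-2B and 92 reads (74.2 to 113) at percentile 88.3 in C4-2BER. Its depth-corrected ratio was 1.43 (95% counting interval 1.04 to 1.96), the single promoter of the 8 whose interval excluded 1. MEIS2, a regulator of limb, heart and neural development, held 61 reads (46.7 to 78.4) at percentile 73.0 in C4-2B, against 60 reads (45.8 to 77.2) at percentile 71.9 in C4-2BER. MEIS3 had the weakest promoter of the 8 in both lists, with 45 reads (32.8 to 60.2) at percentile 69.7 in C4-2B and 26 (17.0 to 38.1) at percentile 49.3 in C4-2BER. Among the promoter intervals of all genes MEIS1 stood at percentiles 32.8 and 34.6, MEIS2 at 20.2 and 15.6, and MEIS3 at 18.1 and 7.39. The MEIS3 interval lay 4.89 kb inside MEIS3 at an alternative start, and the canonical TSS of MEIS3 was covered in neither list. The ratio at this MEIS3 interval was 0.69 (0.41 to 1.14), so the drop in rank came with reads whose counting error includes no change. A further MEIS3 promoter interval was called in C4-2B only, with 23 reads at percentile 25.7. Its summit lay 3 bp from another annotated start, 1.74 kb downstream of the canonical TSS.

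PKNOX1 and PKNOX2 encode the PREP proteins. PKNOX1, expressed in most tissues, had the most reads of the 8 promoters, 171 (146 to 199) at percentile 96.6 in C4-2B and 164 (140 to 191) at percentile 96.7 in C4-2BER. PKNOX2 held 94 reads (76.0 to 115) at percentile 83.1 in C4-2B and 101 (82.3 to 123) at percentile 89.5 in C4-2BER. Among the promoter intervals of all genes PKNOX1 stood at percentiles 73.7 and 74.5, and PKNOX2 at 30.5 and 37.8. In the order of the promoters by rank, the counting intervals of neighbours overlapped except between PBX3 and MEIS1 in C4-2B, and between PBX3 and PKNOX2 and between MEIS2 and MEIS3 in C4-2BER. The rank was higher in C4-2BER for 5 of 8 members, where 60.6% of all genes with a promoter interval in both lists were higher, so the share was close to the background. Among 9 other TALE genes, TGIF1, TGIF2, MKX and IRX1 to IRX6, all 9 had a promoter interval in both lists and 4 ranked higher in C4-2BER. IRX6 moved most of these, from 31 reads at percentile 58.3 to 51 reads at percentile 80.1.

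**Figure D1:**
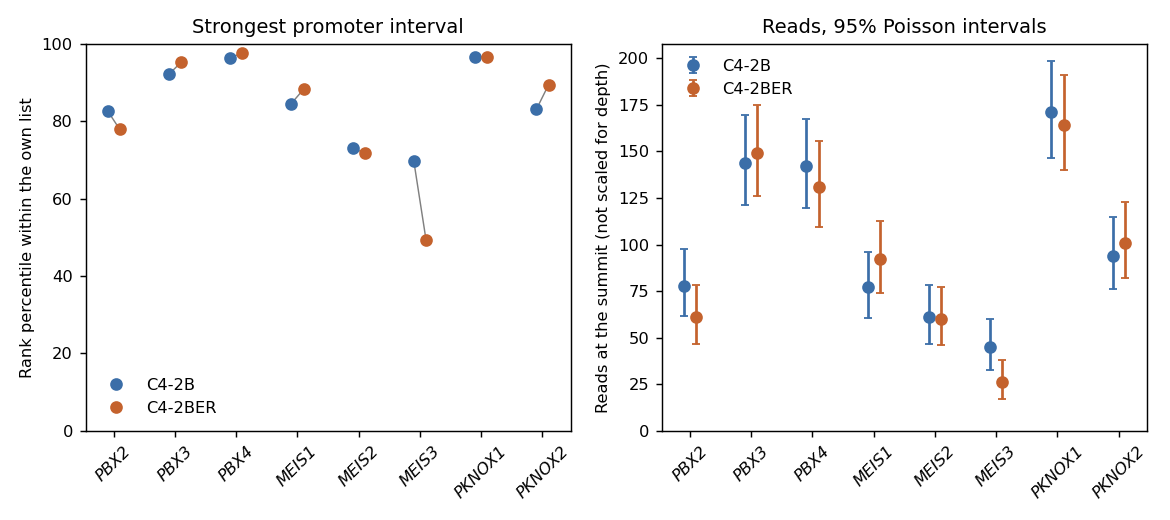
Strongest promoter interval of each gene in C4-2B (blue) and C4-2BER (orange). The left panel gives the rank percentile within the own list, and the right panel the reads at the summit, not scaled for depth, with exact 95% Poisson intervals. MEIS3 fell from percentile 69.7 to 49.3, while PBX3, PBX4 and PKNOX1 stayed above percentile 92.

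The surroundings of the MEIS1 and MEIS2 promoters differed more between the lines than the summits did. Peak calling sets each summit against the reads in the 10 kb around it, which include the promoter itself. Expressed as a multiple of the genome-wide background of the own list, this local level at the MEIS1 promoter rose from 2.82 in C4-2B to 5.94 in C4-2BER. At the MEIS2 promoter it was 3.16 and 5.79. The C4-2BER level was thus 2.11 times that of C4-2B at MEIS1 and 1.83 times at MEIS2, at percentiles 97.3 and 95.5 among the genes with a promoter interval in both lists, whose median was 1.12. The part of this local level in the promoter values was not tested. At the other members the ratio ran from 0.93 at PBX4 to 1.37 at PBX2. In C4-2BER the MEIS1 promoter was split into 4 intervals covering 1903 bp, against 2 intervals covering 1672 bp in C4-2B. A site 1.52 kb upstream of the MEIS1 TSS rose from 28 reads at percentile 29.1 to 76 reads at percentile 81.7, a ratio of 3.25 (2.08 to 5.20). A MEIS2 promoter site, 1.22 kb upstream, rose from 37 to 57 reads, a ratio of 1.84 (1.20 to 2.87). A further MEIS2 promoter interval, 1.51 kb downstream with 35 reads, was called in C4-2B only. The promoters of the members differ in base composition. Within 500 bp of the TSS the observed over expected CpG ratio was 0.98 at PBX3 and PKNOX1, 0.90 at MEIS2, 0.64 at MEIS1, 0.63 at MEIS3 and 0.43 at PBX2.

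Next, all intervals of the regions were compared. Line-only means that an interval did not overlap the other list by at least 1 bp. Of the C4-2B intervals, 57 of 174 (32.8%, Wilson 95% interval 26.2 to 40.0) were line-only, against 37.7% of the whole C4-2B list. Of the C4-2BER intervals, 51 of 166 (30.7%, 24.2 to 38.1) were line-only, against 20.8% of the whole C4-2BER list. These intervals assume independent sites, and sites of a region are neighbours. By family, the MEIS genes had the largest C4-2BER-only share, 30 of 62 intervals (48.4%, 36.4 to 60.6). At the PBX genes the count was 13 of 59 (22.0%) and at the PKNOX genes 8 of 45 (17.8%). With both lists limited to intervals whose −log10 q reached 10, the C4-2BER-only share was 21.1% at the members and 14.1% over the whole list. With equal numbers of intervals in both lists, it was 34.3% at the members and 27.7% over the whole list.

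**Figure D2:**
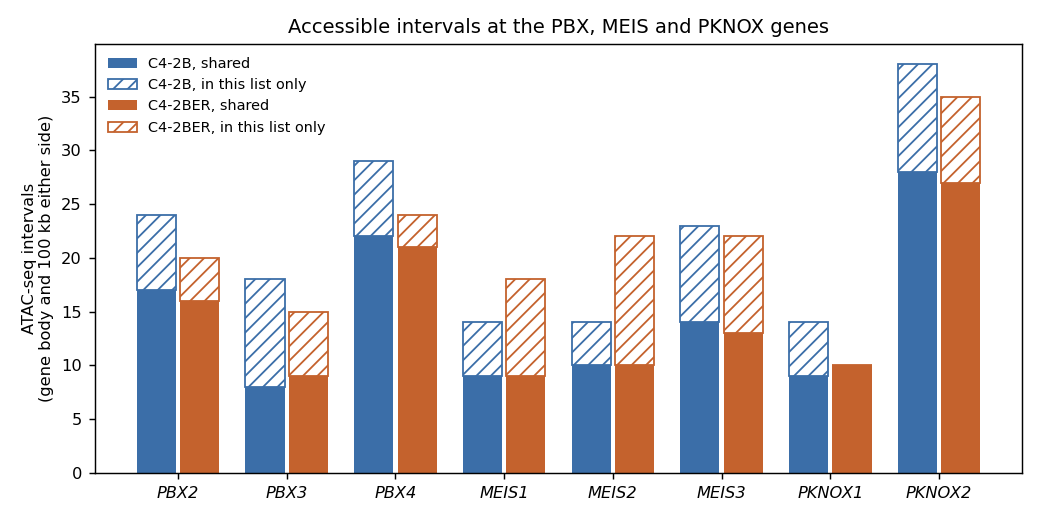
Number of ATAC-seq intervals in the gene body and 100 kb either side, for C4-2B (blue) and C4-2BER (orange). Filled parts overlap the other list and hatched parts are in 1 list only. MEIS1 (14 and 18) and MEIS2 (14 and 22) had more intervals in C4-2BER, and PKNOX1 had no C4-2BER-only interval.

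MEIS1 and MEIS2 were the 2 of 8 members with more intervals in C4-2BER than in C4-2B, which held for 14.4% of the genes with an interval in reach. This contrast with the other 6 depended on the unequal length of the lists. With equal numbers of intervals, 5 of 8 members had more in C4-2BER, against 46.2% of genes, with 12 and 18 at MEIS1, 11 and 22 at MEIS2, 17 and 22 at MEIS3, 14 and 15 at PBX3, and 34 and 35 at PKNOX2. In the lists as deposited, MEIS1 went from 14 to 18 intervals, and MEIS2 from 14 to 22. The C4-2BER-only intervals numbered 9 at MEIS1, 12 at MEIS2 and 9 at MEIS3. Scaled to the length of the region, these placed MEIS3 at percentile 99.2, MEIS2 at 95.6 and MEIS1 at 93.5 of all protein-coding genes. MEIS3 also had 9 C4-2B-only intervals, at percentile 89.0, so its region differed in both directions. PKNOX1, with no C4-2BER-only interval, stood at percentile 11.9. The C4-2BER-only intervals of MEIS2 were weak ones, and among intervals whose −log10 q reached 10 the order turned, to 9 in C4-2B and 8 in C4-2BER. For MEIS1 it held, at 7 and 10, and MEIS1 and MEIS3 were then the 2 of 8 members with more in C4-2BER, against 8.77% of genes.

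The introns of MEIS2 held a single interval in C4-2B, against 8 intervals in C4-2BER. Of these 8, 7 were line-only. Their summits held 9 to 21 reads, where the weakest interval of the C4-2B list held 8. The strongest of these, 175 kb downstream of the TSS, held 21 reads at percentile 56.6, and its sequence is printed above. The intronic site found in both lines, 130 kb downstream, went from 21 reads in C4-2B down to 15 in C4-2BER. Outside the gene body, the strongest C4-2BER-only interval of MEIS2 lay 9.83 kb upstream between genes, with 24 reads at percentile 57.5, and a second lay 10.3 kb upstream with 12 reads. Some MEIS2 sites were lower in C4-2BER. The strongest C4-2B interval of the region, 303 kb downstream in an intron of CDIN1, went from 70 to 35 reads, a ratio of 0.60 (0.39 to 0.91).

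At MEIS1, the gains were spread over the gene and its flanks. The strongest C4-2BER-only interval lay in an untranslated exon near the 3′ end of MEIS1, at chr2:66569320-66569582, with 31 reads at percentile 64.7. A cluster of 3 C4-2BER-only intervals 72.8 to 73.7 kb downstream of the TSS held 12 to 17 reads. Upstream, a C4-2BER-only interval at 43.5 kb held 21 reads at percentile 52.6. Downstream of the gene, in the lncRNA gene LINC01798, a shared site rose from 19 to 39 reads, a ratio of 2.46 (1.39 to 4.50), and the local level there was 1.46 and 4.17 times the background of the own list. In the other direction, 4 intronic intervals with 11 to 25 reads were called in C4-2B only, and the shared intronic site at 60.8 kb went from 65 to 28 reads, a ratio of 0.52 (0.32 to 0.81). MEIS1 introns thus lost and gained intervals, whereas MEIS2 introns had gains only at this calling threshold.

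**Figure D3:**
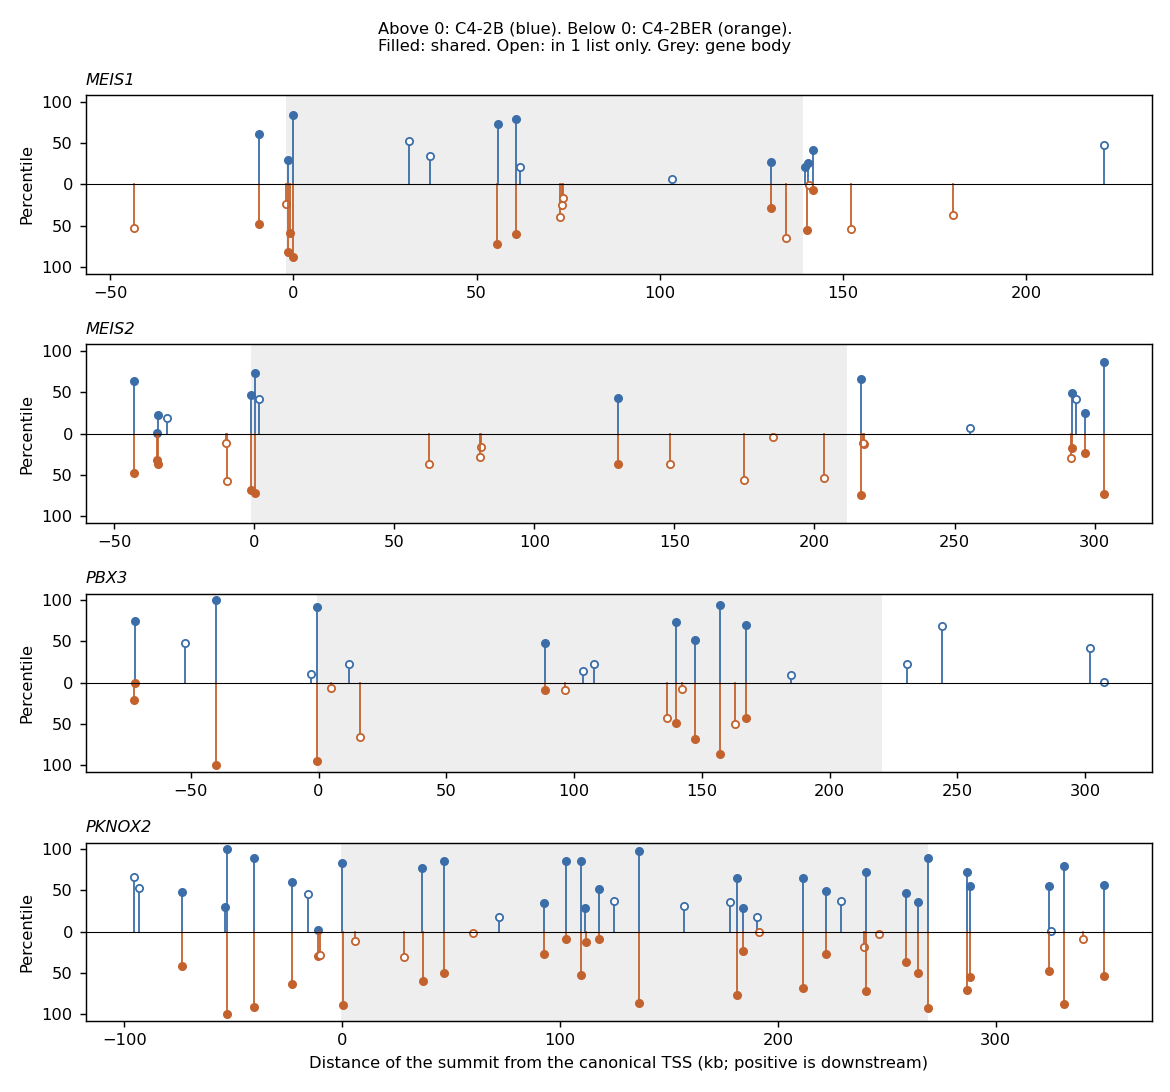
Accessible intervals along MEIS1, MEIS2, PBX3 and PKNOX2 by distance of the summit from the canonical TSS in kb, with the gene body in grey. Stems give the rank percentile within the own list, upwards for C4-2B (blue) and downwards for C4-2BER (orange), and open symbols are in 1 list only. The introns of MEIS2 carry 7 open C4-2BER symbols, and the shared intronic sites of PKNOX2 between 36.9 and 136 kb are lower in C4-2BER.

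Shared sites were then compared in reads. Each C4-2BER interval was joined to the strongest C4-2B interval it overlapped, which gave 115 sites on 112 C4-2B intervals, since 3 C4-2B intervals overlapped more than 1 C4-2BER interval. Rank rose by at least 20 points at 10 sites, against 8.67% of all joined sites of the lists, and fell by as much at 23, against 22.2%. The median change was −0.57 points at the members and −2.38 over all joined sites. In depth-corrected reads, the counting interval lay above 1 at 12 of the 115 sites and below 1 at 18, where 5.17% and 23.0% of all joined sites did so. The median ratio was 0.99 at the members and 0.89 over all joined sites. The PBX genes held 46 of the shared sites, the MEIS genes 32 and the PKNOX genes 37. Of the 12 sites above 1, 11 were at MEIS genes and 1 at PBX4. Of the 18 below 1, 8 were at PBX genes, 6 at PKNOX2 and 4 at MEIS genes. In each family the share below 1 was under the 23.0% of all joined sites.

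MEIS3 had 7 of its 13 shared sites above 1 and 2 below. The largest rise among the members was 28.0 kb upstream of MEIS3, in an exon of the sodium-calcium exchanger gene SLC8A2, where 14 reads at percentile 18.4 became 121 reads at percentile 92.8. The ratio was 10.3 (5.93 to 19.5). The C4-2BER interval of 1059 bp overlapped this C4-2B interval of 414 bp and a weaker one of 213 bp with 11 reads. The local level rose along with the reads, from 1.00 to 7.46 times the background of the own list, and its part in the result was not tested. At 8.85 and 7.94 kb upstream, a pair of neighbouring sites went from 69 to 124 and from 29 to 58 reads, with ratios of 2.15 (1.59 to 2.93) and 2.39 (1.51 to 3.88). The local level rose there too, from 2.12 to 6.58 and from 2.16 to 6.63 times the background. The fold of summit over local level was therefore lower in C4-2BER, 12.2 and 9.40 at the first site and 5.15 and 4.40 at the second. Upstream of MEIS3 lay 6 of the 7 rising sites, several of them at the promoters of SLC8A2, KPTN and NAPA. The strongest C4-2BER-only interval of the region, at the promoter of the complement receptor gene C5AR1 112 kb downstream, held 57 reads at percentile 84.0. The strongest C4-2B-only interval, 90.6 kb upstream in an intron of NAPA, held 58 reads at percentile 51.7. Within MEIS3 the direction was the opposite to that of the rising upstream sites. An internal promoter site 12.2 kb from the TSS went from 37 to 16 reads, a ratio of 0.52 (0.27 to 0.95). MEIS3 is a short gene in a dense stretch of chromosome 19, so most of these intervals lie in or near other genes, and which gene they serve was not tested. Within 50 kb of MEIS3 the C4-2BER-only intervals numbered 2 of 10, against 9 of 22 within 100 kb.

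At PKNOX2 the shared sites followed the lists as a whole. The counting interval lay below 1 at 6 of 27 sites, where 23.0% of all joined sites did so, and the median ratio was 0.90, against 0.89. The 6 sites were all intronic. The introns of PKNOX2 held 15 shared sites, 12 of which had a ratio below 1, and the counting interval lay below 1 at 6 and above 1 at none. The share over all intronic joined sites of the lists was not computed, so whether this is particular to PKNOX2 was not tested. The site 103 kb downstream of the TSS fell from 71 reads at percentile 85.7 to 10 reads at percentile 9.40, a ratio of 0.17 (0.08 to 0.33). At 110 kb the reads went from 83 to 21, and at 47.0 kb from 79 to 22, with ratios of 0.30 (0.18 to 0.49) and 0.33 (0.20 to 0.54). The strongest intronic site, at 136 kb, went from 147 to 62 reads, a ratio of 0.50 (0.37 to 0.68), and kept a high rank, percentile 98.3 in C4-2B and 86.7 in C4-2BER. These falls stood beside a promoter that was not lower, with a ratio of 1.29 (0.96 to 1.72). No PKNOX2 site had a counting interval above 1, and the 8 C4-2BER-only intervals held 7 to 19 reads. The strongest C4-2B-only interval lay 95.6 kb upstream in an intron of SLC37A2, with 47 reads at percentile 66.2.

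**Figure D4:**
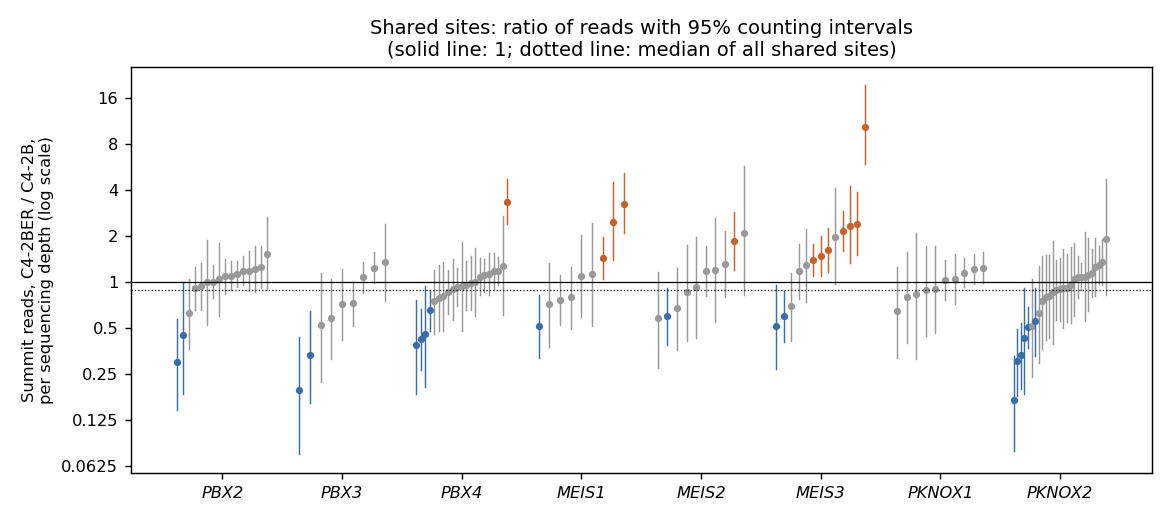
Depth-corrected ratio of summit reads, C4-2BER over C4-2B, at the 115 shared sites, on a log axis with 95% counting intervals and sites sorted within each gene. Orange sites have an interval above 1 and blue sites below 1, the solid line is 1 and the dotted line the median of all joined sites, 0.89. MEIS3 has 7 orange sites, and PKNOX2 has 6 blue and no orange ones.

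Among the PBX genes, PBX3 had the largest line-only shares. Of its 18 C4-2B intervals, 10 were line-only (55.6%, 33.7 to 75.4), and of its 15 C4-2BER intervals, 6 (40.0%, 19.8 to 64.3). Both Wilson intervals include the shares of the whole lists, 37.7% and 20.8%. Scaled to the length of the region, the line-only counts stood at percentiles 50.9 and 67.4 of all protein-coding genes. A site 71.9 kb upstream, in an intron of MAPKAP1, was a single C4-2B interval with 43 reads at percentile 74.4. In C4-2BER it was split into 2 intervals with 12 and 7 reads, at ratios of 0.33 (0.16 to 0.64) and 0.19 (0.07 to 0.44). Both ratios use the same 43 reads, at a C4-2B summit 71.884 kb upstream. The summit with 7 reads lay close to it, at 71.900 kb, and the one with 12 reads farther off, at 72.217 kb. A strong site 40.1 kb upstream changed little, with 159 and 142 reads at percentiles 99.6 and 99.3. Downstream of PBX3 all 4 C4-2B intervals were line-only and the C4-2BER list had none, the strongest being 244 kb from the TSS with 42 reads at percentile 68.2. The introns of PBX3 gained 6 C4-2BER-only intervals with 10 to 26 reads, the strongest 16.1 kb from the TSS at percentile 66.3, and lost 4 with 12 to 15 reads.

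PBX4 and PBX2 had smaller line-only shares than PBX3 in both lists. Scaled to the length of the region, the order was another one. The line-only counts in C4-2B and C4-2BER then stood at percentiles 77.3 and 83.2 at PBX2, both above PBX3, and at 60.4 and 56.7 at PBX4. PBX4 had 29 and 24 intervals, of which 7 and 3 were line-only. All 4 shared intronic sites of PBX4 were lower in C4-2BER, and 3 of them had a counting interval below 1, such as the site at 27.3 kb with 79 and 28 reads, a ratio of 0.42 (0.27 to 0.66). Over all joined sites of the lists the median ratio was 0.89, and 23.0% had a counting interval below 1. The share over intronic sites alone was not computed. A site 77.4 kb downstream, in CILP2, rose from 49 to 136 reads, a ratio of 3.32 (2.38 to 4.70), while the local level went from 3.79 to 8.97 times the background. PBX2 is a short gene on chromosome 6 among many others, and 11 of its 24 C4-2B intervals lay at promoters of other genes. Its strongest C4-2BER-only interval was in a coding exon of PRRT1, 41.4 kb downstream, with 71 reads at percentile 84.6, and a second lay in an exon of PBX2 itself, 4.36 kb from the TSS and within 2 kb of a TSS of AGER, with 50 reads. The largest fall was 84.2 kb upstream, from 48 to 12 reads, a ratio of 0.30 (0.14 to 0.57).

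PKNOX1 had the fewest differences of the 8 by these measures. All 10 C4-2BER intervals overlapped a C4-2B interval, and none of the 10 ratios had a counting interval that excluded 1. The 5 C4-2B-only intervals were weak, and the strongest held 18 reads at percentile 34.3. With 10 sites, a line-only share of up to 27.8% remains within the Wilson interval.

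**Figure D5:**
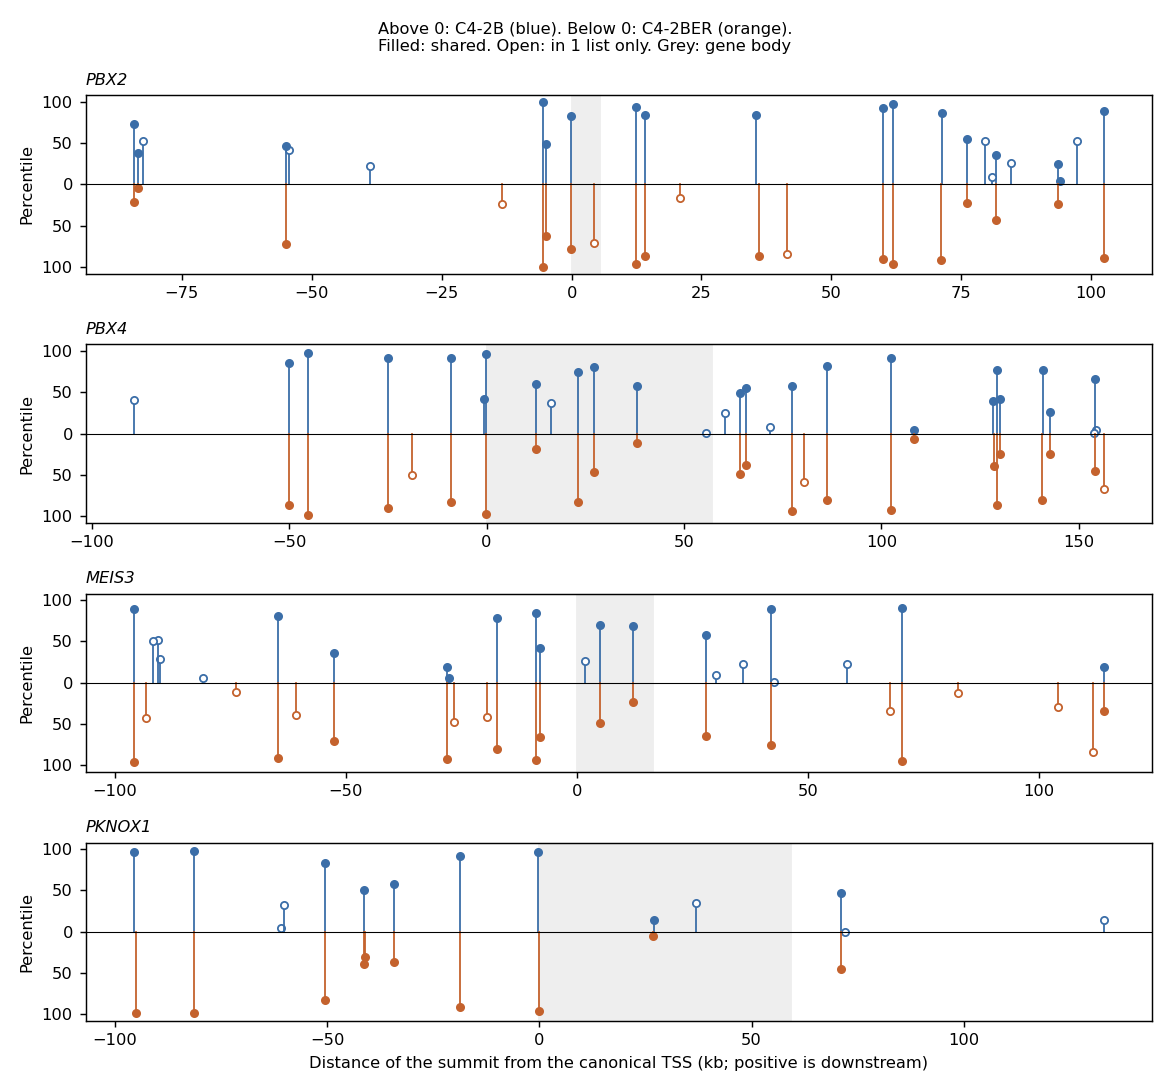
Accessible intervals along PBX2, PBX4, MEIS3 and PKNOX1, drawn as in the map of the longer genes, with distance from the canonical TSS in kb and rank percentile within the own list (C4-2B upwards, C4-2BER downwards). PKNOX1 has 5 open C4-2B symbols and no open C4-2BER symbol, and the site 28.0 kb upstream of MEIS3 goes from percentile 18.4 to 92.8.

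The intervals were also divided by position. Line-only intervals were 2 of 14 in C4-2B promoters (14.3%, 4.01 to 39.9) and 1 of 13 in C4-2BER promoters (7.69%, 1.37 to 33.3). Over the whole lists, 16.2% and 13.6% of the intervals at a promoter were line-only. In introns they were 17 of 46 (37.0%, 24.5 to 51.4) and 22 of 51 (43.1%, 30.5 to 56.7), where 41.9% and 22.5% of the intervals away from promoters were line-only in the whole lists. The Wilson intervals of promoters and introns overlapped in both lists. Exons outside the promoters of the members held 2 C4-2BER intervals, both line-only and 1 of them at the promoter of AGER, and none in C4-2B. Flanking intervals at promoters of other genes were line-only in 7 of 33 and 6 of 31 cases, and other flanking intervals in 31 of 81 and 20 of 69. Line-only sites were also the weaker ones, with a median of 19 reads against 44 for shared sites in C4-2B, and 16 against 33 in C4-2BER.

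Finally, the intervals were searched for the motifs of the factors these genes encode, within 100 bp of the summit. TGACAG was present in 30 of 174 C4-2B intervals (17.2%, 12.4 to 23.5), where 15.3% of the whole list had it, and in 22 of 166 C4-2BER intervals (13.3%, 8.92 to 19.3), against 14.9%. TGATNNAT was present in 12 C4-2B intervals (6.90%, against 6.82%) and 13 C4-2BER intervals (7.83%, against 6.30%). Both were near the share of the lists. PKNOX2, which had the most intervals of the 8 members, also held the most TGACAG matches. They were in 16 of its 38 C4-2B intervals and 9 of its 35 C4-2BER intervals, against 15.3% and 14.9% of the lists. PKNOX2 was picked here as the highest of 8, and its share was not tested. Of the 51 C4-2BER-only intervals, 7 held TGATNNAT (13.7%, 6.81 to 25.7), 2 each at MEIS1 and PBX3 and 1 each at MEIS2, MEIS3 and PKNOX2. The PBX-MEIS decamer, found in 0.091% of all C4-2B intervals and 0.083% of all C4-2BER intervals, occurred at 1 site, 52.9 kb upstream of PKNOX2 at the promoter of TMEM218, which was singled out after its values were seen. It was at percentile 99.9 in both lists, with 198 reads in C4-2B against 179 in C4-2BER. TGTTTAC was in 17 C4-2B and 12 C4-2BER member intervals (9.77% and 7.23%, against 9.79% and 7.48%), near the share of the lists. By state it was in 10 of 57 C4-2B-only intervals (17.5%, 9.82 to 29.4) and 3 of 51 C4-2BER-only intervals (5.88%, 2.02 to 15.9), and in 7 of 117 (5.98%, 2.93 to 11.8) and 9 of 115 (7.83%, 4.17 to 14.2) shared intervals. For no motif was the share by state computed over the whole lists. Whether the line-only shares of TGTTTAC or TGATNNAT are particular to the members was thus not tested. AGATAA was in 18 and 13 member intervals (10.3% and 7.83%, against 11.8% and 9.83%), and CAGCTG in 27 and 30 (15.5% and 18.1%, against 13.7% and 13.9%). The CTCF consensus was in 6 and 5 intervals, all of them shared. The TGACAG core is part of the decamer, so a decamer match counts for both.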

How the data were processed

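ATAC-seq of 4 libraries, 2 of C4-2B and 2 of C4-2BER, was used as deposited. According to the methods of the study and the submitters' processing notes, reads were aligned to hg38 with Bowtie2, deduplicated with Picard and processed with bedtools 2.17. Replicates were then merged, and macs2 (version not given in the sources used here) called peaks with reads extended to 200 bp. The methods print a shift of 100 bp with no minus sign, and summit positions, and with them the printed sequences and motif windows, depend on its direction. The authors deposited 1 peak list per line. In each, the deposited fold enrichment is a ratio of summit reads to local background after 1 is added to either. The −log10 p and −log10 q that the authors deposited belong to the summit, the q within its own list. The deposited score restates q and was not used, and the last deposited column is the summit offset in bp. No batch is named for the merged lists.

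Each interval was counted once with its strongest summit. Whole reads at the summit and the background were solved from the fold and −log10 p for 100% of intervals (tolerance 0.001). The median summit had 29 (C4-2B) and 23 (C4-2BER) reads. The local background was a whole number of reads in 10 kb for 100% of intervals above the floor. The lowest summit held 8 and 7 reads, below which nothing was called. Depth was taken from the lowest background of each list. No interval passed the end of an hg38 chromosome. Genes came from GENCODE release 44. Shares have Wilson, reads exact Poisson and ratios exact binomial 95% intervals, and reads are not independent molecules, so all cover counting error only. Nothing was tested, since no value belongs to a single library. In bulk samples a site open in fewer cells and one less open in each cell cannot be told apart. Steps were tested on simulated data.

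Members and gene lists were chosen with earlier results of these data known. A further luminal marker and 1 further sequence are not reported here. Listed by rule for each gene were its promoter interval, its strongest line-only interval per list and its shared sites of largest rise and fall. Only some of the line-only intervals and of the rises and falls so listed are given above. Other sites named were chosen after their values were seen. Alternatives were a minimum −log10 q of 5 or 10, equal numbers of intervals, C4-2B scaled to the depth of C4-2BER, 50% reciprocal overlap, 50 kb flanks, a promoter window of 1000 bp and a motif window of 250 bp. Python 3.11.15, pandas 2.3.3, scipy 1.17.1, statsmodels 0.14.6 and pysam 0.24.0 were used.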

Additional observations from a re-analysis of the deposited data

How the results depend on the processing

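Of 44 alternative values over 8 settings, 34 stayed close to the reported value. A minimum −log10 q of 10 left 115 C4-2B and 90 C4-2BER intervals and a C4-2BER-only share of 21.1%, against 14.1% over the whole list. Flanks of 50 kb left 114 C4-2B intervals. Equal numbers of intervals gave a C4-2B-only share of 24.3%, against 29.1% over the whole list. The median rank change was then 3.81 points, in the opposite direction to the reported −0.57. A 50% reciprocal overlap raised the line-only shares to 45.4% and 42.8%. A motif window of 250 bp gave TGACAG in 35.1% and 34.3% of intervals. For this rank change, the reciprocal overlap and the wider motif window, values over the whole lists were not computed. Whether these shifts are particular to the members was thus not tested. At the genes, 50 kb flanks turned the order of counts at PBX2, to 7 in C4-2B and 10 in C4-2BER, and equal numbers turned it at MEIS3, to 17 and 22, at PBX3, to 14 and 15, and at PKNOX2, to 34 and 35. It turned at MEIS3 also at a minimum −log10 q of 5, to 19 and 20, and of 10, to 12 and 13, and at MEIS2 at 10, to 9 and 8. Equal numbers left PBX4 at 24 and PKNOX1 at 10 in both lists, and 50 kb flanks left PKNOX2 at 29. All 8 members kept a promoter interval in both lists at each of the settings tried for it, and 4 to 6 of them ranked higher in C4-2BER, against 5 as reported.

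No paired analysis was possible because both replicates of a line went into 1 merged list, and for that reason no library was left out either. Depth limits the weak sites: a C4-2BER-only interval of 9 reads lies close to the lowest summit called in C4-2B, which held 8.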
